A study of Homo sapiens with 2 samples.

Results

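The genes described here encode Golgi glycosyltransferases, which build glycans one sugar at a time, and Golgi sulfotransferases, which add sulfate to them. They were selected by symbol as the genes that carry 1 of 18 symbol prefixes (sialyl-, fucosyl-, galactosyl-, N-acetylgalactosaminyl- and N-acetylglucosaminyltransferases, the heparan and chondroitin sulfate polymerases and the glycan sulfotransferases) together with A4GALT. The rule found 124 of the 22595 symbols in the tables, and it used no measured value. They are described below as 11 families by enzyme role. RNA was sequenced from 786-O cells, an established line derived from a human clear cell renal carcinoma without working VHL, in 1 library from medium with 25 mM glucose and 1 library from medium with 0 mM glucose. The labels also describe the libraries as LucF and LucG, with glucose and without, and do not explain these names, so a further difference between the cultures cannot be told apart from glucose. How long the cells were kept without glucose could not be read from the sources used here. The libraries held 27329002 counts with glucose and 31358694 without. With a single library per group there were no replicates to check any difference, no p-value is given, and "higher" and "lower" describe these 2 libraries rather than the conditions.

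Glycan assembly in the Golgi needs sugar nucleotides, which are made in large part from glucose, and sulfate donors, which are carried in from the cytosol. Mucin-type O-glycans start when a GALNT enzyme places N-acetylgalactosamine (GalNAc) on serine or threonine. N-glycans arrive from the endoplasmic reticulum and are branched by MGAT enzymes. Heparan and chondroitin sulfate grow on a shared linkage tetrasaccharide, and gangliosides and globosides grow on lactosylceramide. Sialic acid is mostly added last, at the ends of chains, where lectins read it. Fucose is added there or at the core of N-glycans. Sulfate is also added along heparan and chondroitin chains. Clear cell renal carcinoma is known for an altered content of sulfated and sialylated glycolipids.

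The 250 bases before the annotated start are printed for 4 genes that the results below turn on. They are ST3GAL5, the gene with the lowest ratio among the measured members, B4GALT5, which acts just before ST3GAL5 on the same lipid, ST6GALNAC5, the only gene past the size rule in the higher direction, and B3GALT6, a linkage region enzyme. They come from RefSeq in build GRCh38.p14, are written 5′ to 3′ on the gene's own strand, and carry in capitals any match to a motif listed after them.
ST3GAL5, chr2:85888991-85889240, minus strand: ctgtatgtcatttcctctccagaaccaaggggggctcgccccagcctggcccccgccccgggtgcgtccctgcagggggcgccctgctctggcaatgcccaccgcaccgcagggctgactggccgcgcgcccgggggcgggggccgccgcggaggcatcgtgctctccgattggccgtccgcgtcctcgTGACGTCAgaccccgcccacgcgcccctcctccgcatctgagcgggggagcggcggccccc
B4GALT5, chr20:49713879-49714128, minus strand: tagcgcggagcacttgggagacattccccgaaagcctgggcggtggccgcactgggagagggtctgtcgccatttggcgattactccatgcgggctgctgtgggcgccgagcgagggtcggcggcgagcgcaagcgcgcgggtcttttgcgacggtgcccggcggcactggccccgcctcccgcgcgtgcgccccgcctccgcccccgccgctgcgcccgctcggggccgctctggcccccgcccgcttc
ST6GALNAC5, chr1:76867230-76867479, plus strand: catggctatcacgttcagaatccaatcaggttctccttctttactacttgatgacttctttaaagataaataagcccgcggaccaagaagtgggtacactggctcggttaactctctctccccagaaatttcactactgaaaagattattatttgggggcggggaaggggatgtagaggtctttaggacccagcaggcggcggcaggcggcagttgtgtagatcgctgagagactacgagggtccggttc
B3GALT6, chr1:1231987-1232236, plus strand: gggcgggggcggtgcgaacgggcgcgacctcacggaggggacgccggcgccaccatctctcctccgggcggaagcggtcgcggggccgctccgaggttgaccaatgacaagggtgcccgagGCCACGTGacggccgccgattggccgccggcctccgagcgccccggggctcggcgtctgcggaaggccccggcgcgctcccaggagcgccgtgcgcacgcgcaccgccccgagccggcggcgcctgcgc

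Promoter windows from 250 bases before to 50 bases after each annotated start were searched on both strands for 5 motifs of stress and nutrient regulation. These were the ER stress element ERSE (CCAAT, then 9 bases of any kind, then CCACG), the unfolded protein response element UPRE (TGACGTGG), the Golgi stress element GASE (ACGTGGC), the cyclic AMP response element CRE (TGACGTCA) and the E-box (CACGTG). A window was found for 96 of the 124 genes and for 69 of the 86 measured ones, and a gene with several starts was counted once if any of its windows held the motif. ERSE was in 0 of the 69 measured genes and in 0.0916% of all 27305 genes with a window. GASE was in 7 of the 69 (10.1%) against 3.95% of all genes, and the E-box in 8 (11.6%) against 8.77%. CRE was in 1 (1.45%) against 2.25%, and UPRE in 1 (1.45%) against 0.927%. Over the 96 genes with a window, measured or not, GASE was in 8. The shares of all genes include unmeasured ones, so they are not shares over like genes, and the differences were not tested. GASE and the E-box overlap in part, as in B3GALT6, where the run of capitals holds a GASE on the reverse strand and an E-box. ST3GAL5, the measured gene with a CRE, had 5 annotated starts. A CRE lay at 61 to 54 bases before the first-listed start and at 17 to 10 bases before the second, and a GASE at 74 to 68 bases before the third. The printed B4GALT5 and ST6GALNAC5 windows held none of the 5 motifs. A match describes letters only, and the counts do not show which start was in use.

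Genes whose counts in both libraries added up to 20 or more were taken as measured, and 86 of the 124 were. Levels of 1 gene in both libraries are given as CPM, counts per 1e+06 counts of a library size scaled by the TMM method, and levels of different genes as the deposited RPKM, which also divides by gene length. A gene was counted as higher or lower without glucose when the 95% counting interval of its ratio lay wholly above 2-fold or wholly below 0.5-fold. By this rule 9 of the 86 measured genes (10.5%) were lower, where 6.05% of all 14240 measured genes were, and 1 (1.16%) was higher, where 3.92% of all were. The lower genes were ST3GAL5, GALNT12, B3GNT4, CHST1, B3GNT7, ST6GAL2, ST3GAL2, GALNT2 and B4GALT5, and the higher gene was ST6GALNAC5. The other 76 passed neither bound. With bounds at 1.5-fold the counts were 17 lower (19.8%, against 12.2% of all measured genes) and 7 higher (8.14%, against 10.6%), and with bounds at 3-fold they were 3 lower (3.49%, against 2.13%) and 0 higher (against 1.41%).

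**Figure D1:**
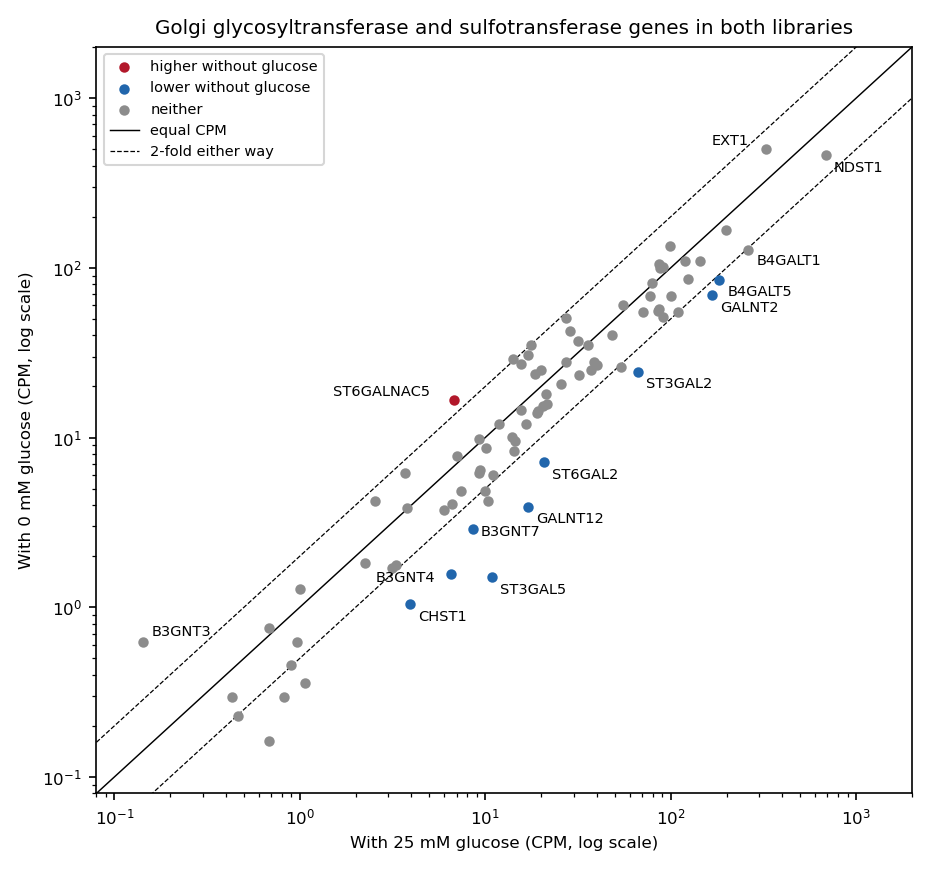
CPM of the 86 measured genes in the library with 25 mM glucose (x axis) and with 0 mM glucose (y axis), both on log scales, 1 point per gene. The solid line marks equal levels and the dashed lines a 2-fold difference; the 9 lower genes, in blue, lie below the lower dashed line and ST6GALNAC5, in red, above the upper one, and gray points past a dashed line have intervals that reach it.

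The middle of the list also lay below that of all genes. The median log2 ratio was -0.46 over the 86 genes, with quartiles at -0.86 and 0.12, and 0.03 over all 14240 measured genes, with quartiles at -0.44 and 0.43. A ratio below 0 on the log2 scale was found for 59 of the 86 (68.6%) and for 48.2% of all measured genes. Among the better expressed genes, those that reached 10 CPM in one library or both, the medians were -0.40 over 59 members and 0.04 over 10055 genes. Gene length moved with the ratio in these libraries. The median over all measured genes was 0.32 in the shortest of 10 length classes and -0.20 in the longest, and the members' median length was 3353 bases against 2963 for all. After each gene's length-class median was subtracted, the members' median was -0.40. Genes of snoRNAs, scaRNAs and microRNAs held 5.83% of the counts with glucose and 7.99% without, and with them left out the members' median was -0.45. Fewer cells making a transcript and less transcript per cell cannot be told apart in bulk RNA.

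**Figure D2:**
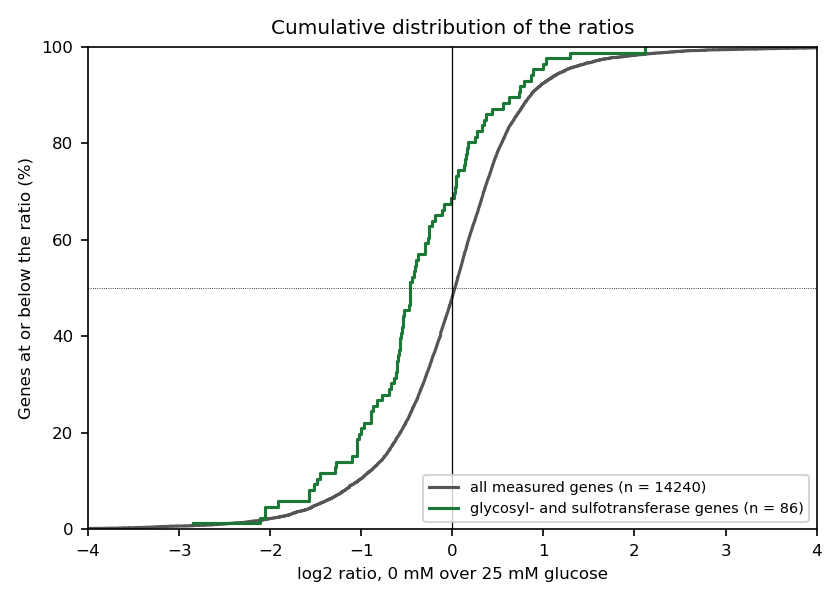
Percentage of genes (y axis) at or below each log2 ratio of 0 mM over 25 mM glucose (x axis), for all 14240 measured genes and for the 86 measured glycosyl- and sulfotransferase genes. The curve of the 86 genes crosses 50% at -0.46 and that of all genes at 0.03.

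The cells carried their line's markers. All 10 markers fixed for the line were measured, and PAX8, a renal lineage factor, had 243 and 233 CPM, although 4 of the 10 were lower, among them CDH6, a renal cadherin, at 191 and 8.40 CPM, and 1 was higher, the hypoxia factor gene EPAS1, at 134 and 424 CPM. Markers of other cell types were scarce. Of 6 leukocyte markers 2 were measured (summed levels 11.5 and 26.2 CPM), of 5 endothelial markers 2 (2.32 and 0.686 CPM), of 7 fibroblast markers 6 (20.3 and 10.2 CPM), and of 4 erythroid markers 0, with HBA1 and HBA2 at 0 counts. Their part in the results was not tested.

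Of the 13 measured GALNT genes, which start mucin-type O-glycans, 11 had a log2 ratio below 0 and 2 of these passed the rule as lower. The median was -0.58, and the counts of all 19 family members summed to 17877 with glucose and 11984 without, a ratio of 0.613 after scaling (interval 0.599 to 0.627). GALNT2, a broadly expressed initiating enzyme with the highest RPKM of the family with glucose, had 4669 counts (167 CPM) with glucose and 2109 (68.9 CPM) without. It was 2.42-fold lower (interval 2.30 to 2.55). Its share of the family's counts was 26.1% with glucose (95% Wilson interval 25.5 to 26.8%) and 17.6% without (16.9 to 18.3%). GALNT12, an initiating enzyme of the digestive tract, had 473 counts (16.9 CPM) and 120 (3.92 CPM), 4.31-fold lower (3.52 to 5.31). More than 10 reads were found on 8 of its 10 exons with glucose and on 3 without.

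The other well-expressed family members differed less. GALNT7, which extends glycopeptides that already carry GalNAc, had 91.1 and 51.3 CPM (log2 ratio -0.83), and GALNT6 had 14.3 and 8.33 CPM (-0.78). GALNT14, GALNT1, GALNT10, GALNT3, GALNT11 and GALNT4 lay between -0.62 and -0.45. On the other side of 0 stood GALNTL4 (GALNT18 in current RefSeq), with 16.9 and 30.7 CPM (0.86), whose gene model overlaps CSNK2A1P on the same strand, and GALNT9, with 2.54 and 4.22 CPM (0.73). In RPKM, GALNT2 stood 1.67 times above GALNT1 with glucose (38.8 and 23.2) and level with it without, at 15.3 and 14.8. GALNT14 had the highest RPKM of the family in the library without glucose, 20.4.

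Among the enzymes that extend the first GalNAc, the 5 GCNT genes summed to 73.1 and 53.6 CPM, a ratio of 0.733 (interval 0.687 to 0.783). GCNT1, which makes the core 2 branch, had 38.8 and 27.9 CPM (-0.48), and GCNT3, a mucin core 2 and core 4 enzyme with the highest RPKM of its family, had 19.3 and 14.4 CPM (-0.42). GCNT2, the I-branching enzyme, had 14.0 and 10.1 CPM (-0.47). No GCNT gene passed the rule, and 3 of the 4 measured ones had a ratio below 0. The core 1 synthase C1GALT1, outside the families selected, had 63.1 and 72.5 CPM (0.20).

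Sialyltransferases held both the lowest ratio of all measured members and the only gene called higher. Of 13 measured genes, 3 were lower, 1 was higher and 9 passed neither bound, with log2 ratios from -2.85 to 1.29. The counts of all 20 family members summed to nearly the same scaled level, 328 and 323 CPM (ratio 0.983, interval 0.955 to 1.01), so genes within the family differed in opposite directions. ST3GAL5, the GM3 synthase that sialylates lactosylceramide and opens the ganglioside pathway, had 303 counts (10.8 CPM) with glucose and 46 (1.503 CPM) without. It was 7.20-fold lower (interval 5.27 to 10.1). More than 10 reads lay on 7 of its 9 exons with glucose and on 3 without, so the difference was not limited to 1 exon.

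ST3GAL2 and ST6GAL2 were the other lower sialyltransferases. ST3GAL2, which sialylates galactose of gangliosides and of core 1 O-glycans, had 1865 counts (66.7 CPM) and 748 (24.4 CPM), 2.73-fold lower (2.50 to 2.97). ST6GAL2, an α2,6-sialyltransferase related to ST6GAL1, had 578 counts (20.7 CPM) and 220 (7.19 CPM), 2.87-fold lower (2.46 to 3.37). Its relative ST6GAL1, the main α2,6-sialyltransferase of N-glycans, had 18.5 and 23.8 CPM (0.36). ST3GAL1, which caps core 1 O-glycans, had 99.1 and 134 CPM (0.44), so that its RPKM was 0.948 times that of ST3GAL2 with glucose and 3.51 times without.

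ST6GALNAC5, which adds α2,6-linked sialic acid to GM1b to make an α-series ganglioside, had 190 counts (6.79 CPM) with glucose and 507 (16.6 CPM) without, 2.44-fold higher (interval 2.06 to 2.90). This call was lost when libraries were scaled by total counts (log2 ratio 1.22 in place of 1.29) and when the length-class median was subtracted (1.13). ST6GALNAC4, which makes the disialylated core 1 glycan and has the highest RPKM of the sialyltransferases without glucose (20.4), had 17.5 and 34.9 CPM, a ratio of 1.99 (1.78 to 2.22). ST3GAL3, an enzyme of N-glycan and glycoprotein sialylation, had 15.7 and 26.99 CPM (0.79). ST3GAL4 had 15.5 and 14.5 CPM, ST3GAL6 14.5 and 9.57 CPM, and ST6GALNAC6, an enzyme of α-series gangliosides, 40.2 and 26.6 CPM. The polysialyltransferase gene ST8SIA4 had only 19 and 5 counts (interval of the ratio 0.0702 to 0.666).

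Genes that build glycosphingolipids fall into several of the selected families. The 8 genes listed for this pathway were B4GALT5, B4GALT6, ST3GAL5, A4GALT, B3GNT5, B3GALT4, ST8SIA1 and ST8SIA5. Of these 7 were measured, and all 7 had a log2 ratio below 0, with a median of -0.97. The list was chosen with earlier results of these data known, so this count depends on which genes it holds. The list summed to 252 and 123 CPM, a ratio of 0.488 (interval 0.469 to 0.508), with B4GALT5 holding 72.4% of its counts with glucose. ST3GAL5 had the lowest ratio. Not in that list were ST6GALNAC5, with a ratio above 1, and ST3GAL2 and ST6GALNAC6, with ratios below 1. Also not listed were B3GALT5 and ST3GAL1, with ratios of 2.04 and 1.36, and B4GALT4, with a ratio of 0.987. B4GALT5, the main lactosylceramide synthase, had 5116 counts (183 CPM) with glucose and 2603 (85.1 CPM) without, 2.15-fold lower (2.05 to 2.25). It was the lower gene nearest to the bound and lost the call when the length-class median was subtracted (-1.02 in place of -1.10). Its paralog B4GALT6 had 9.22 and 6.18 CPM (-0.58), and B4GALT5 had 20.2 times the RPKM of B4GALT6 with glucose and 14.0 times without. A4GALT, the Gb3 synthase that opens the globoside branch, had 288 counts (10.3 CPM) and 129 (4.22 CPM), 2.44-fold less (1.98 to 3.03), just outside the rule. Under scaling by total counts, under upper-quartile scaling and after length-class subtraction it passed, with log2 ratios of -1.36, -1.32 and -1.35. B3GNT5, which opens the lacto series, had 37.4 and 25.1 CPM (-0.58).

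Enzymes on both sides of this step lay outside the selected families. UGCG, the glucosylceramide synthase that makes the substrate of B4GALT5, had 456 and 439 CPM (-0.05). B4GALNT1, which converts GM3 to GM2, was 3.56-fold lower at 11.9 and 3.33 CPM (2.84 to 4.49), and GAL3ST1, the sulfotransferase of sulfatide, was 8.15-fold lower at 15.98 and 1.96 CPM (6.21 to 10.9). Back among the listed genes of the selected families, and further along the ganglioside pathway, ST8SIA1, the GD3 synthase, had 27 and 19 counts. ST8SIA5, also listed, had 2 and 7.

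**Figure D3:**
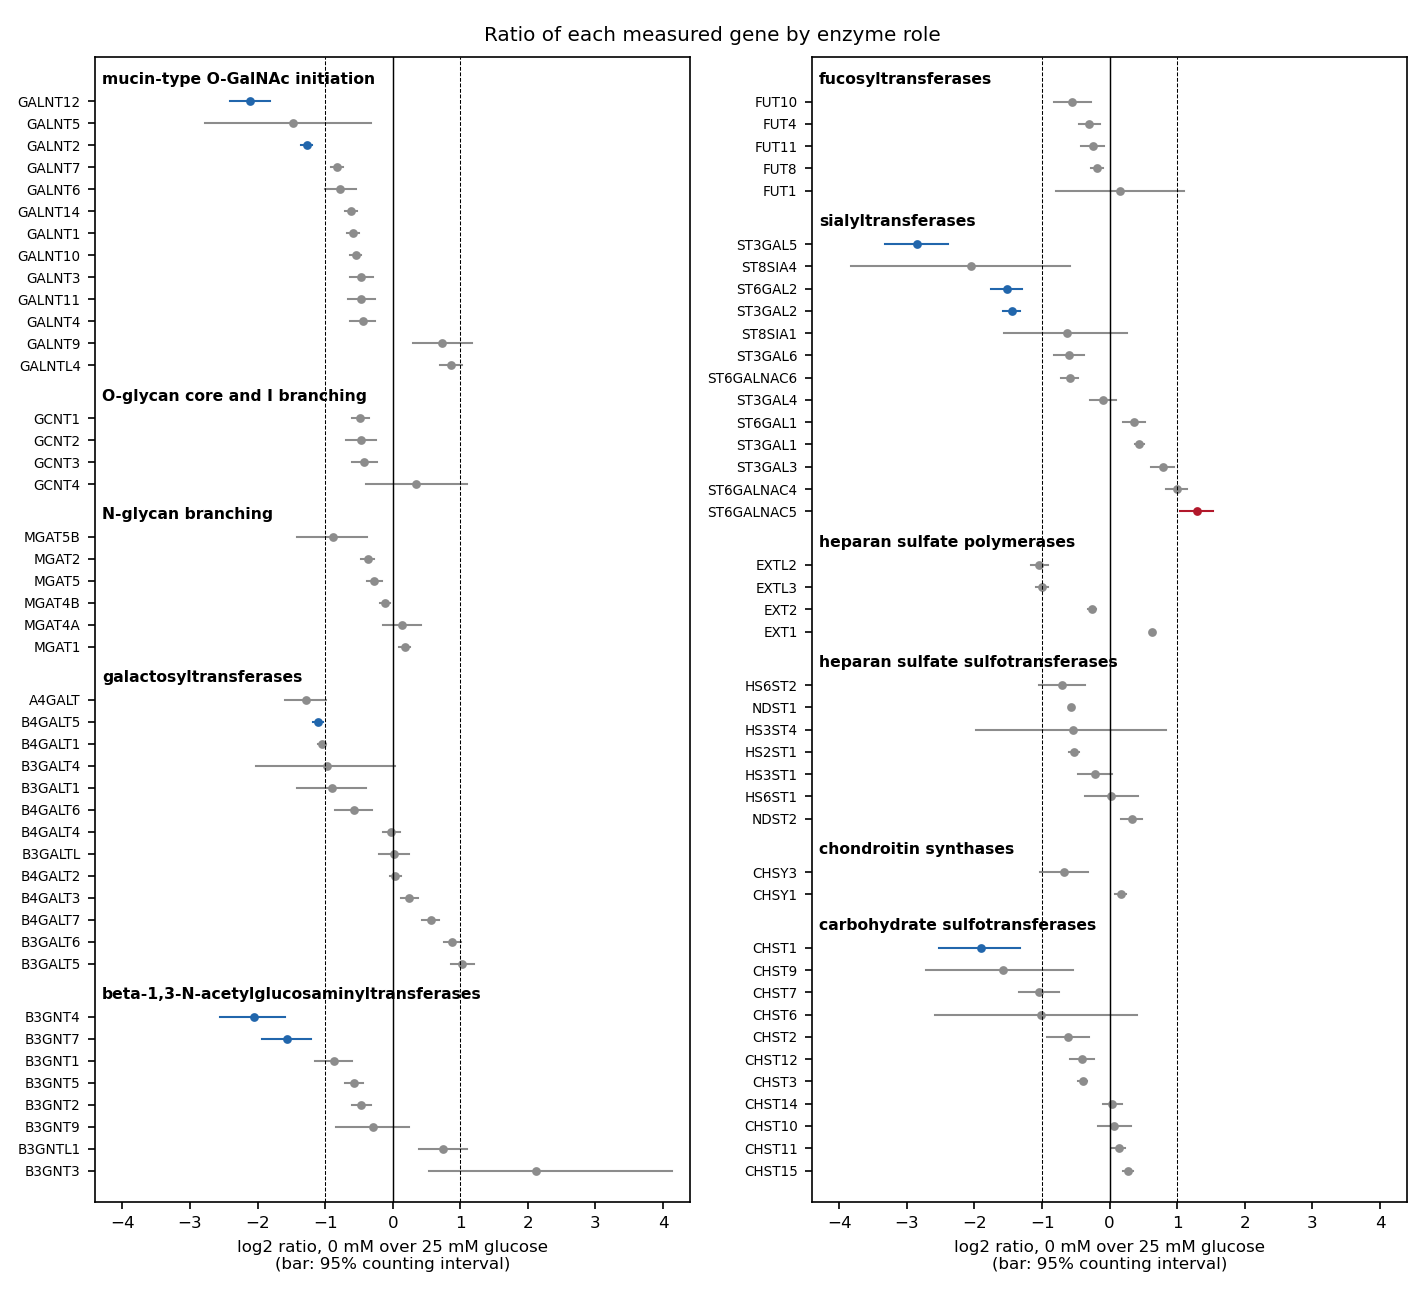
Log2 ratio of 0 mM over 25 mM glucose (x axis) for each of the 86 measured genes, ordered within its enzyme role, with bars for the 95% counting interval and dashed lines at 2-fold. The 9 genes in blue lie wholly below the lower line and ST6GALNAC5, in red, wholly above the upper one.

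Galactosyltransferases had log2 ratios on both sides of 0, but not at every level of expression. B4GALT1 and B4GALT5, with the most counts, lay below 0. So did A4GALT, B4GALT6, B3GALT1 and B3GALT4, the measured genes with the fewest counts. All genes above 0 stood at levels between these. Of 13 measured genes, 7 had a ratio below 0 and 6 above, with 1 past the rule (B4GALT5), and the family's summed levels were 696 and 512 CPM. B4GALT1, the chief galactosyltransferase of N-glycans, had 7294 counts (261 CPM) and 3874 (127 CPM), 2.06-fold less (1.98 to 2.14), just outside the rule. With total-count and upper-quartile scaling it passed (log2 ratios -1.11 and -1.07 in place of -1.04). After length-class subtraction it moved the other way, to -0.98, and did not pass. Its paralog B4GALT2 had 79.4 and 81.6 CPM (0.04), so that the RPKM of B4GALT1 was 1.80 times that of B4GALT2 with glucose and 0.853 times without. B4GALT3 and B4GALT4 had log2 ratios of 0.25 and -0.02. B3GALT5, which makes type 1 chains, had 14.2 and 28.9 CPM, a ratio of 2.04 (1.81 to 2.30). B3GALTL (B3GLCT in current RefSeq), a glucosyltransferase of thrombospondin repeats that works in the endoplasmic reticulum rather than the Golgi, had 11.8 and 12.0 CPM.

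Among genes named for N-acetylglucosaminyl transfer to galactose, 2 of 8 measured were lower and the median was -0.52. B3GNT4, a poly-N-acetyllactosamine enzyme, had 183 counts (6.54 CPM) and 48 (1.57 CPM), 4.17-fold lower (3.02 to 5.86). B3GNT7, which extends keratan sulfate chains, had 239 counts (8.54 CPM) and 88 (2.88 CPM), 2.97-fold lower (2.32 to 3.84). CHST1, the sulfotransferase that places sulfate on galactose of keratan sulfate, was lower as well, with 110 counts (3.93 CPM) and 32 (1.05 CPM), 3.76-fold (2.52 to 5.76). These genes of chain extension and keratan sulfate stood at low levels in both libraries. B3GNT2, the main poly-N-acetyllactosamine enzyme and the highest of the family by RPKM, had 32.0 and 23.2 CPM (-0.46). B3GNT1 is named B4GAT1 in current RefSeq, a glucuronyltransferase of dystroglycan glycans, and had 11.01 and 6.01 CPM (-0.87). B3GNT3, with 4 and 19 counts, had the highest ratio of the measured members, 4.34, with an interval of 1.44 to 17.6 that did not clear the bound. B3GNTL1, named QTGAL in current RefSeq and so no longer as an N-acetylglucosaminyltransferase, had 3.68 and 6.14 CPM (0.74).

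Heparan sulfate genes held the members with the highest RPKM and differed unequally. EXT1, a subunit of the heparan sulfate copolymerase with the highest RPKM of all 124 genes in both libraries, had 9112 counts (326 CPM) with glucose and 15393 (503 CPM) without, a ratio of 1.54 (1.51 to 1.59). Its partner EXT2 had 199 and 166 CPM (-0.26), and EXT1 stood 1.88 times above EXT2 in RPKM with glucose and 3.47 times without. EXTL2 and EXTL3, which add single N-acetylglucosamine units to the linkage tetrasaccharide, had 53.6 and 26.0 CPM (-1.04) and 110 and 54.8 CPM (-1.005). Their intervals, 0.445 to 0.529 and 0.469 to 0.529 as ratios, spanned the 0.5-fold bound. EXT1 made up 47.3% of the polymerase counts with glucose and 67.1% without.

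No heparan sulfate sulfotransferase passed the rule, and the summed level of the family was 851 CPM with glucose and 592 CPM without (ratio 0.695, interval 0.682 to 0.709). NDST1, the N-deacetylase and N-sulfotransferase that starts chain modification, made up 80.5% and 78.2% of these counts and had 19169 counts (685 CPM) and 14152 (462 CPM), a log2 ratio of -0.57. HS2ST1, the uronyl 2-O-sulfotransferase, had 124 and 86.1 CPM (-0.53). The less abundant NDST2 had 19.9 and 25.0 CPM (0.33). Of the 6-O-sulfotransferases, HS6ST2 had 6.58 and 4.05 CPM (-0.70) and HS6ST1 3.79 and 3.86 CPM (0.03). HS3ST1, of the 3-O-sulfotransferases that make the antithrombin site, had 10.1 and 8.72 CPM (-0.22).

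The linkage region shared by heparan and chondroitin sulfate had a ratio above 1 at both galactose steps. B4GALT7, which adds the first galactose to xylose, had 805 counts (28.8 CPM) and 1299 (42.4 CPM), a ratio of 1.48 (1.35 to 1.61). B3GALT6, which adds the second galactose, had 767 counts (27.4 CPM) and 1545 (50.5 CPM), a ratio of 1.84 (1.69 to 2.01). The steps before and after these, outside the selected families, did not share that direction. XYLT1, a xylosyltransferase that starts the linkage, was 2.83-fold lower (2.31 to 3.47), XYLT2 had 52.4 and 34.0 CPM, and the glucuronyltransferase B3GAT3 had 9.86 and 5.0 CPM.

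**Figure D4:**
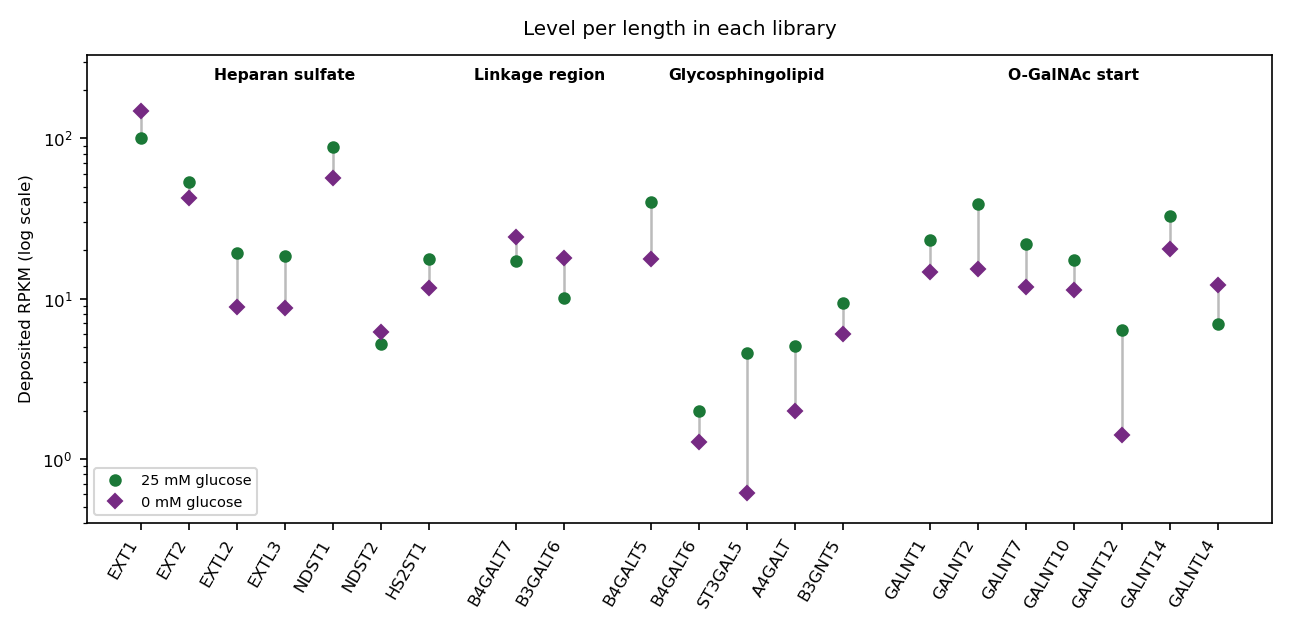
Deposited RPKM (log scale) of 21 genes, chosen after their values were seen, of heparan sulfate, linkage region, glycosphingolipid and O-GalNAc synthesis, with circles for 25 mM glucose and diamonds for 0 mM glucose. EXT1, NDST2, GALNTL4 and both linkage region genes are the ones whose diamond lies above the circle.

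Most of the selected chondroitin sulfate genes lay within 1.5-fold. CHSY1, the main chondroitin synthase, had 90.9 and 102 CPM (0.16), and CHSY3 had 6.004 and 3.76 CPM (-0.68). CHST3, the chondroitin 6-O-sulfotransferase with the highest RPKM of the CHST genes with glucose, had 4048 counts (145 CPM) and 3358 (110 CPM), a log2 ratio of -0.40. CHST15, which makes doubly sulfated units, had 86.6 and 105 CPM (0.27), CHST11, a 4-O-sulfotransferase, 55.2 and 60.6 CPM (0.13), and CHST14, the dermatan 4-O-sulfotransferase, 27.3 and 28.0 CPM (0.04). The low CHSY3 was past 1.5-fold. So was CHST7, a further 6-O-sulfotransferase, with 9.97 and 4.84 CPM (-1.04, interval of the ratio 0.395 to 0.594). Of 11 measured CHST genes, CHST1 alone passed the rule.

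N-glycan branching and fucose genes had no member past the rule. Of 6 measured MGAT genes 4 had a ratio below 0, and their log2 ratios ran from -0.89 to 0.18. MGAT1, which opens the complex N-glycan pathway, had 87.8 and 99.2 CPM (0.18), MGAT2 71.0 and 54.9 CPM (-0.37), and MGAT5, which makes the β1,6 branch, 48.4 and 40.1 CPM (-0.27). MGAT4B, the highest of the family by RPKM, had 119 and 110 CPM (-0.12). Its gene model overlaps that of SQSTM1 on the other strand, which had 7502 counts with glucose and 28402 without, and reads of the genes in any overlap cannot be told apart because the use of strand is not given. MGAT5B had the lowest ratio of the family, at 88 and 52 counts (-0.89). FUT8, which adds the core fucose of N-glycans and held 57.3% of the fucosyltransferase counts with glucose, had 77.6 and 67.9 CPM (-0.19). FUT4, which makes Lewis x type structures, had 25.5 and 20.7 CPM (-0.30), FUT11 21.4 and 17.9 CPM (-0.25), and FUT10 9.40 and 6.40 CPM (-0.55), where the last 2 are named POFUT4 and POFUT3 in current RefSeq as protein O-fucosyltransferases.

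Several measured genes rested on few reads, so that their intervals were wide. CHST9, a GalNAc 4-O-sulfotransferase, had 30 and 11 counts (interval of the ratio 0.152 to 0.688), GALNT5 23 and 9, and B3GALT1, a type 1 chain galactosyltransferase, 92 and 54. B3GALT4, the GM1 and GD1b synthase, had 25 and 14 counts, FUT1, which makes the H antigen, 19 and 23, and GCNT4 28 and 39. Better counted were MGAT4A with 7.04 and 7.74 CPM, the sulfotransferases CHST2 with 7.43 and 4.87 CPM, CHST10 with 9.29 and 9.74 CPM, and CHST12 with 20.4 and 15.4 CPM. None of these genes passed the rule.

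The remaining 38 genes had from 1 to 19 counts over both libraries and a highest RPKM of 0.16, and no ratio is given for them. None of the 124 genes had 0 counts in both libraries. GALNT8 and HS3ST3A1 each had 0 counts with glucose and 6 without, which is above a floor of 3 counts, and ST6GALNAC3 had 3 and 14. EXTL1 had 8 and 1. Among these little-expressed genes were most Lewis and secretor fucosyltransferases (FUT2, FUT3, FUT5, FUT6, FUT7 and FUT9), the brain-type genes ST8SIA2, ST8SIA3, NDST3 and NDST4, and MGAT3, which makes the bisecting branch.

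Lists of genes that supply or surround these enzymes were counted in the same way. Of 21 genes of nucleotide sugar synthesis, all measured, 2 were higher and 1 was lower, and the median log2 ratio was 0.29. UAP1, which makes UDP-N-acetylglucosamine, was 2.53-fold higher (83.1 and 210 CPM), and UGDH, which makes UDP-glucuronic acid for glycosaminoglycans, 2.36-fold higher (111 and 261 CPM). GFPT2 was 2.29-fold lower, at 31.3 and 13.7 CPM. Its more abundant paralog GFPT1 went the other way, at 238 and 470 CPM, a ratio of 1.97 (1.92 to 2.03) that did not pass the rule. Of 11 transporter genes of the nucleotide sugar families, SLC35B1, an ATP and ADP exchanger of the endoplasmic reticulum, alone passed the rule, 3.18-fold higher at 32.6 and 104 CPM, and the median was 0.24. The CMP-sialic acid transporter SLC35A1 had 21.8 and 20.5 CPM (-0.09), and the UDP-galactose transporter SLC35A2 32.3 and 38.1 CPM (0.24).

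Further enzymes of the same pathways had medians between that of the members and that of all genes, and the differences were not tested. Of 23 measured further Golgi glycan enzymes, 1 was higher (GNPTG, 2.25-fold) and 3 lower (GAL3ST1, B4GALNT1 and B4GALNT3), with a median of -0.23. Of 20 further proteoglycan enzymes, XYLT1 was lower and CSGALNACT2, which starts and extends chondroitin chains, was 2.83-fold higher (22.8 and 64.5 CPM), with a median of -0.19. Of 16 measured proteoglycan core proteins, 1 passed the rule, the chondroitin sulfate proteoglycan versican (VCAN), 2.11-fold lower at 1147 and 543 CPM, and the median was -0.18. Of 20 measured genes of Golgi structure none passed the rule, and their median was 0.09. In all measured genes 3.92% were higher and 6.05% lower.

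In hg19 coordinates as the tables give them, ST3GAL5 spans 86066271 to 86116157 on the minus strand of chromosome 2, B4GALT5 48249483 to 48330421 on the minus strand of chromosome 20, and ST6GALNAC5 77333186 to 77529737 on the plus strand of chromosome 1. GALNT2 spans 230202956 to 230417875 on the plus strand of chromosome 1, GALNT12 101569981 to 101612359 on the plus strand of chromosome 9, and ST3GAL2 70413338 to 70472991 on the minus strand of chromosome 16. Counts were given per gene model, so exons, introns and UTRs are not separated. None of the 10 genes past the rule overlapped another gene model of the tables. GALNT4, a gene of 1 exon, lies within POC1B on the same strand, and its counts are uncertain for that reason.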

How the data were processed

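RNA was measured by sequencing in 2 libraries of 786-O cells, grouped by their titles. Counts per gene model were deposited by the authors as raw whole numbers with hg19 coordinates, per the file headers and the submitters' processing notes. The RPKM values deposited by the authors equal counts divided by length and by 1 constant per library, within 0.0922%. No aligner, counting program or strand setting is named in the sources used here. The file headers also name the exons with more than 10 reads. Of 24364 rows, 528 repeated rows were left out before summing per symbol. TMM factors (edgeR 4.0.16, R 4.3.3) over all 22595 symbols were 1.02 with glucose and 0.976 without. Intervals are exact 95% Clopper-Pearson intervals of counting error, with Wilson intervals for shares, computed with Python 3.11.15 and scipy 1.17.1. PCR copies are not independent molecules, so intervals and the floor of 3 counts (0.107 and 0.0980 CPM) cover counting error only. The procedure was tested on simulated data.

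Members and lists were chosen with earlier results of these data known. Named were all genes past the rule, the highest RPKM and largest ratio per family, and up to 3 called genes per related list; others were chosen after their values were seen. With 1 library per group no test was possible. Scaling, count minimum, fold bound, pseudocount, small RNA and length alternatives were run.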

Additional observations from a re-analysis of the deposited data

How the results depend on the processing

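No paired analysis was possible because there was only 1 library for each condition, and for that reason none was left out. The setting that left out antisense and pseudogene symbols gave nothing to compare, as the families held none, and TMM over measured genes only was chosen after seeing the data. The 1 higher gene became 0 with total-count scaling, with length-class medians subtracted and with a 3-fold bound. The number became 7 with a 1.5-fold bound and 3 with the ratio alone past 2-fold. Where the bound was changed, the looser or stricter bound itself sets the number. Under the scaling and length settings, ST6GALNAC5 had log2 ratios of 1.22 and 1.13 in place of 1.29. The lower end of its interval, 1.04 on the log2 scale in the main setting, then fell short of the 2-fold bound. The 9 lower genes became 17 with a 1.5-fold bound, 3 with a 3-fold bound and 18 with the ratio alone, against 12.2%, 2.13% and 10.5% of all measured genes, and stayed between 9 and 11 under the other settings. The members' median log2 ratio ranged from -0.53 with total-count scaling to -0.39 with 1 CPM added, where the median of all genes was -0.04 and 0.02. Of the 11 families by enzyme role, 9 had a summed ratio under 1 with every scaling run and 7 after length-class subtraction, among the 9 the sialyltransferases at 0.983 (interval 0.955 to 1.01). No gene past the rule changed sign under the scaling, length and pseudocount settings. Ratios past 2-fold were too large for these settings to reverse, so this was no test of them. Depth limited the genes with few counts: for MGAT5B, 88 and 52 counts left an interval of the ratio from 0.376 to 0.770.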
